A study of Mus musculus with 18 samples.

Results

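Mouse embryonic stem (ES) cells grown on a layer of control feeders were compared with the same kind of feeders grown alone, across all genes. The comparison rests on 6 of the 18 libraries of the series, taken by label: 3 of ES cells cultured together with control feeders, called co-culture below, and 3 of control feeders without ES cells. The feeders are embryonic fibroblasts, and the labels describe each co-culture library as holding both cell types. As a second point of comparison, values are also given for 3 libraries of ES cells that had been on control feeders and had the feeders removed, and in places for 3 of ES cells kept with ATN161, an inhibitor of the fibronectin receptor integrin α5β1, in place of feeders. The label of the feeders-removed libraries does not tell separation at harvest from culture without feeders. By its title, the study asks how p53 in the cellular surroundings bears on ES cell pluripotency through fibronectin and integrins. The labels name no further genotype or treatment for control feeders. They do not give the ES line, the strain, the medium, the ratio of ES cells to feeders, or whether feeder division was stopped. They also do not say whether the 3 replicates were separate cultures, so that the p-values speak of library-to-library spread alone.

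Feeder fibroblasts are used in mouse ES cell culture as a source of matrix and of secreted factors, among them leukaemia inhibitory factor (LIF), which acts through the receptor subunits LIFR and gp130 and the transcription factor STAT3. ES cells keep themselves undifferentiated through a circuit of transcription factors around OCT4 (Pou5f1), SOX2 and NANOG. Fibroblasts in turn lay down fibronectin, fibrillar collagens and elastic fibres, and hold to fibronectin through α5β1 and αv integrins.

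Library totals were 18.62 to 19.34 M (mega) counts in co-culture and 17.48 to 17.71 M in control feeders. Correlations of log2 CPM (counts per M) between libraries were 0.9946 to 0.9950 within co-culture, 0.9938 to 0.9952 within control feeders and 0.783 to 0.791 between the groups. Of 19630 genes, 15389 passed the filter on low counts. A gene was called at an adjusted p below 0.05 in the quasi-likelihood test of edgeR. Of the genes tested, 84.2% were called, 6822 higher (44.3%) and 6142 lower (39.9%) in co-culture. By at least 2-fold, 4138 were higher (26.9%) and 3206 lower (20.8%). The 3 libraries of one group lay wholly above or below those of the other in 87.9% of genes, and the median log2 fold change over all genes was 0.08. Counts within gene lists are to be read against these shares. Levels below are scaled CPM as mean ± SD over 3 libraries, and adjusted p-values are from edgeR. Fold changes are on the log2 scale as co-culture over control feeders, with an approximate standard error (SE). This SE was back-calculated as the absolute fold change over the square root of the F statistic of the test. For genes near 0 counts in a group it can be smaller than the counting error. In the called genes named below the libraries of both groups did not overlap, except where overlap is stated.

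**Figure D1:**
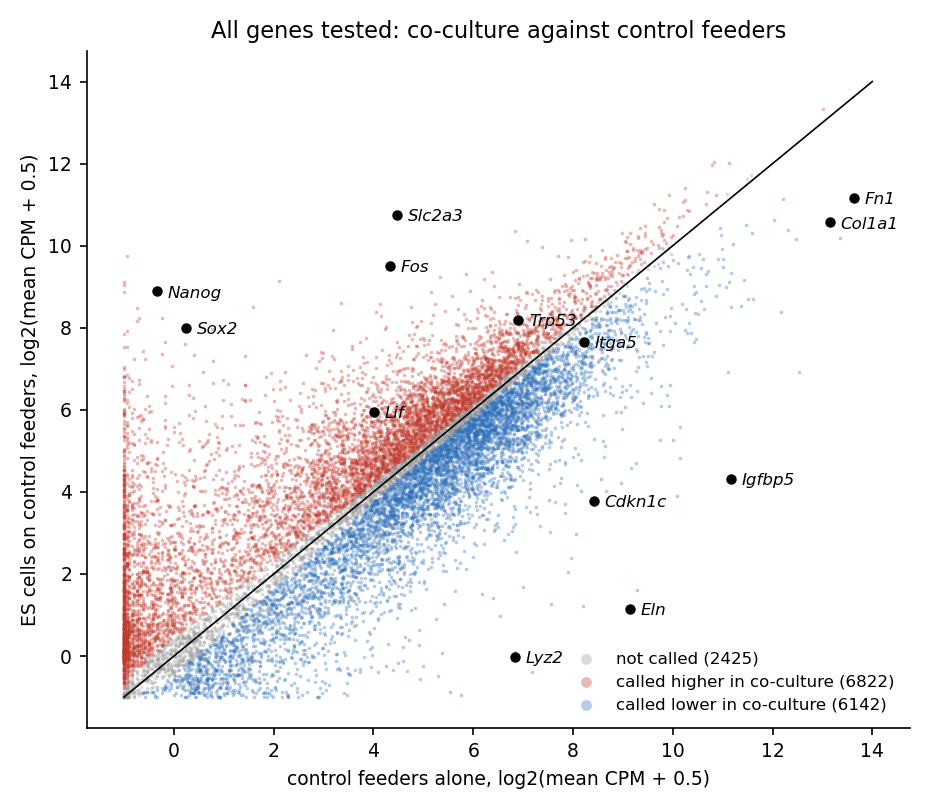
Mean level of each of 15389 genes tested in ES cells on control feeders (y axis) against control feeders alone (x axis), both as log2(CPM + 0.5), with the line of equal level. The 6822 genes called higher lie above the line and the 6142 called lower below it, and a column of genes at the left edge, near 0 CPM in control feeders, reaches high levels in co-culture.

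The labelled cell types were checked first against their markers. The pluripotency factor Nanog (Entrez 71950, GRCm38 chromosome 6, 122707489 to 122714633) had 466, 457 and 494 CPM in co-culture, against 0.283, 0.347 and 0.232 CPM in control feeders. Every co-culture library was high and every feeder library near 0, a fold change of 10.65 ± 0.19 (adjusted p = 4.04e-22). Sox2 had 259, 259 and 248 CPM in co-culture, against 0.905, 0.289 and 0.869 CPM in control feeders, with the same separation (8.52 ± 0.18, adjusted p = 1.09e-19). Pou5f1 had 540, 583 and 549 CPM in co-culture and no count in any control feeder library, which makes it at least 9800-fold higher (against 3 counts over the group). In the other direction, the fibroblast matrix gene Postn had 121, 114 and 124 CPM in co-culture, against 5309, 5660 and 6775 CPM in control feeders. Its 3 co-culture libraries lay far below the feeders (-5.62 ± 0.14, adjusted p = 5.92e-20), close to the 128, 143 and 108 CPM of feeders-removed ES cells, while ES cells with ATN161 had 26.6, 27.3 and 31.8 CPM. RNA of this gene was thus measured with feeders removed and with ATN161 alike, and its source there was not tested. Postn had the largest fall of the 24 fibroblast markers listed, whose median log2 fold change was -1.80, so it is not typical of them. Over all 24 fibroblast markers the summed level was 7213 to 7580 CPM in co-culture, 4696 to 5123 CPM with feeders removed and 35518 to 42592 CPM in control feeders.

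One promoter of the pluripotency set carries a sequence that the set is known for. NANOG is itself a target of the OCT4-SOX2 pair, whose binding site joins an octamer to a SOX half-site. In the RefSeq promoters of GRCm38.p6, 300 bases from 250 before to 50 after a start, the letters CATTGTNAT (either strand) were found in 0.93% of 27025 genes. They were present in 1 of 13 core pluripotency genes with an entry, Nanog, shown on the + strand at chr6:122707394-122707452 with the match, which reads on the opposite strand, in capitals. A match describes letters and not binding.
Nanog: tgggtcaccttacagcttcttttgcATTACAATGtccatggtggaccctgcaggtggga

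Of 20 core pluripotency genes, all 20 rose, with a median log2 fold change of 10.62, or 10.58 with the 5 members without counts in feeders at their bound. L1td1, which encodes an RNA-binding protein of ES cells, had 186 ± 6.46 CPM in co-culture and 0.0189 ± 0.0327 CPM in control feeders. Jarid2, a subunit of Polycomb repressive complex 2, was already present in feeders and still rose by 4.83 ± 0.09 (co-culture 248 ± 7.13, control feeders 8.67 ± 0.179 CPM). Rif1, a telomere and replication timing factor, had the smallest rise (co-culture 110 ± 5.59, control feeders 34.8 ± 0.183 CPM, 1.67 ± 0.11). Of 21 naive pluripotency genes, 19 rose and 1 fell (median 8.33). Esrrb, an orphan nuclear receptor, stood at 446, 494 and 460 CPM in co-culture and had no count in feeders. The F-box gene Fbxo15 had 303 ± 24.8 CPM in co-culture and 0.344 ± 0.149 CPM in control feeders, and Klf5 96.8 ± 1.66 CPM in co-culture and 2.2 ± 0.355 CPM in control feeders. Klf4, which fibroblasts also express, rose less (co-culture 307 ± 26.7, control feeders 143 ± 17.8 CPM, 1.10 ± 0.11). The exception was Spp1, which encodes the secreted protein osteopontin and is also made by mesenchymal cells, at 1061 ± 88 CPM in co-culture and 2371 ± 123 CPM in control feeders (-1.16 ± 0.10, adjusted p = 2.19e-10). The dioxygenase gene Tet2 was not called (co-culture 22.4 ± 0.932, control feeders 19.2 ± 2.64 CPM, adjusted p = 0.105).

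Genes of neighbouring pluripotent states, of the germline and of the early embryo were also found in co-culture. Of 13 formative and primed genes tested, 11 rose and 1 fell (median 4.34, or 3.51 with 3 members at their bound). The de novo methyltransferase gene Dnmt3b had 118 ± 2.6 CPM in co-culture and 3.35 ± 0.792 CPM in control feeders. The transcription factor gene Zic2 had 54.9 ± 2.47 CPM in co-culture and 0.803 ± 0.145 CPM in control feeders. Sall2 fell by 1.40 on the log2 scale (co-culture 15.3 ± 0.462, control feeders 40.5 ± 2.93 CPM). Fgf5, a marker of the primed state, was low in both groups and not called (co-culture 0.389 ± 0.262, control feeders 0.767 ± 0.184 CPM, adjusted p = 0.091). All 15 genes tested of the 2-cell-like state, a rare state of ES cell cultures, rose, with 14 of them without a count in feeders (median 8.20 with those at their bound). Zscan4f had 59.4, 58.2 and 63.4 CPM in co-culture. Usp17la had 33.2 ± 2.14 CPM in co-culture and 0.0193 ± 0.0334 CPM in control feeders. Both belong to multicopy families whose reads cannot be assigned to 1 locus with certainty. Of 18 germ cell genes, 17 rose (median 9.67, or 7.92 with 9 members at their bound). The homeobox gene Rhox5 had 150 ± 5.8 CPM in co-culture and 0.172 ± 0.0578 CPM in control feeders. The RNA-binding gene Dazl had 115 ± 5.18 CPM in co-culture and 0.0193 ± 0.0334 CPM in control feeders, and the piRNA pathway gene Piwil2 41.9 ± 1.24 CPM in co-culture and 1.13 ± 0.223 CPM in control feeders.

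The 10 largest rises by the naming rule were Pou5f1, the NODAL co-receptor gene Tdgf1, Esrrb, Tex19.1, Dppa5a, Ezhip, Trap1a, Fgf4, Sall4 and Tdh, and 9 of them had no count in feeders. The rule ranked called genes whose groups did not overlap, so the separation of these genes is part of the choice. The stem cell factors Sall4 and Tex19.1 stood at 108, 114 and 109 and at 218, 238 and 230 CPM in co-culture, Trap1a at 134, 123 and 139 CPM and Ezhip at 186, 190 and 179 CPM. Dppa5a had 823, 857 and 884 CPM in co-culture, against 0, 0.0578 and 0 CPM in control feeders. Tdgf1 had 529, 492 and 554 CPM in co-culture, at least 9230-fold above feeders, and Fgf4, the growth factor through which ES cells signal to themselves, 127, 126 and 130 CPM, at least 2240-fold. Tdh, the threonine dehydrogenase on which mouse ES cells depend, stood at 102, 118 and 110 CPM, at least 1930-fold above feeders. Among 12 genes of threonine and glycine catabolism 8 rose and 2 fell (median 1.50). The glycine decarboxylase gene Gldc had 202 ± 1.53 CPM in co-culture and 0.383 ± 0.177 CPM in control feeders, and the folate enzyme gene Mthfd1 381 ± 7.87 CPM in co-culture and 37.2 ± 4.57 CPM in control feeders.

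How much of the ES cell programme the co-culture libraries held was read from 598 ES-specific genes, those that were 8-fold or more above control feeders in the feeders-removed and in the ATN161 cells. With 0.5 CPM added to both levels, as in all shares of this kind, their median level in co-culture was 79.9 ± 0.84% of the level in ES cells with feeders removed (SD over 3 co-culture libraries), with quartiles of 65.0 and 95.4% and a range of 24.4 to 285%. Since feeders-removed ES cells helped to choose these genes, the percentages are a description. That reference also held fibroblast marker RNA, 4696 to 5123 CPM summed over the list. The percentages therefore do not give the share of ES cells in co-culture, which was not measured. Dnmt3l, a cofactor of de novo DNA methylation, had the highest share among genes of at least 30 CPM. It had 193 CPM in co-culture and 90.9 CPM in feeders-removed ES cells. The increase of 1.08 ± 0.10 between these groups comes from the values that picked the gene, so no test is given. Ezhip, an inhibitor of Polycomb complex 2, followed with 185 and 98.6 CPM, and the glutathione peroxidase gene Gpx2 with 87.8 and 50.8 CPM. The ERK phosphatase gene Dusp9 had 99.8 CPM in co-culture, 67.8 CPM with feeders removed and 7.23 CPM in control feeders. At the low end were the exchange factor gene Mcf2 (13.7 CPM in co-culture and 48.7 CPM with feeders removed) and the NODAL inhibitor gene Lefty2 (16.3 and 49.1 CPM). Cmah, which makes a sialic acid, had 161 CPM in co-culture and 474 CPM with feeders removed. Copies of the testis ferritin gene Fthl17 (Fthl17e, Fthl17c and Fthl17b) were also among the highest 8, at 61, 63.7 and 76.8 CPM in co-culture and 37.5, 41.6 and 51.8 CPM with feeders removed, with reads that may be split among them. ES-specific genes thus did not share 1 proportion of the feeders-removed level.

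**Figure D2:**
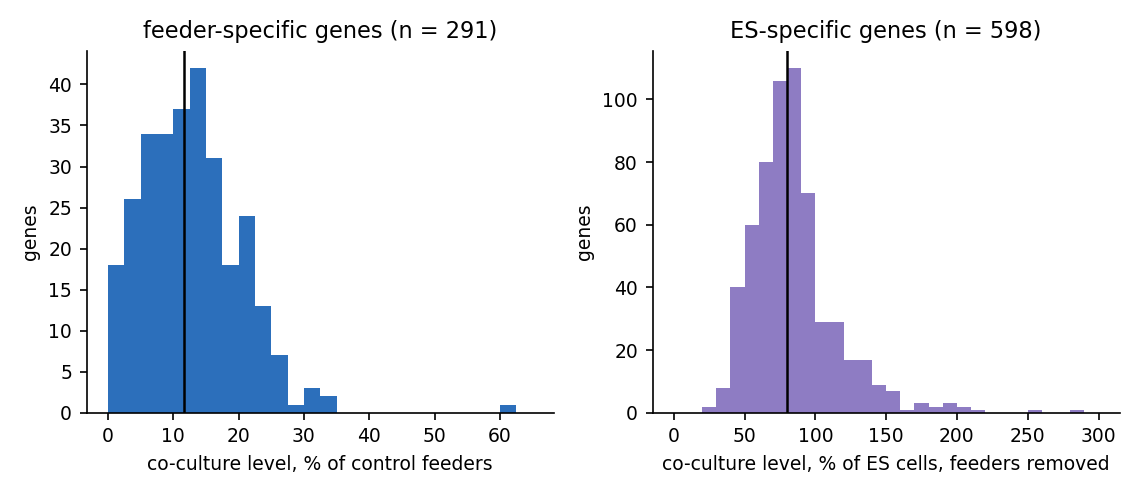
Left, number of genes (y axis) by their level in co-culture as a percentage of control feeders alone (x axis), for 291 feeder-specific genes. Right, the same for 598 ES-specific genes as a percentage of ES cells with feeders removed; black lines mark the medians, and the right-hand genes spread from 24.4 to 285%.

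Feeder-specific genes, 291 in number, were 8-fold or more above the feeders-removed and the ATN161 cells. With the same 0.5 CPM added, their median level in co-culture was 11.9 ± 0.36% of that in feeders alone (SD over 3 co-culture libraries), with quartiles of 7.28 and 17.3% and a range of 0.39 to 62.2%. The cutoff sets this value: it was 22.8% for genes specific at 4-fold, 1.83% at 32-fold and 20.4% where ATN161 cells alone defined the genes. The added 0.5 CPM raises the lowest shares above the ratio of the plain levels. In ES cells with feeders removed the same genes stood at a median of 8.63%, which the rule that chose them holds low. In bulk RNA, fewer feeder cells and less of these RNAs per feeder cell cannot be told apart, and neither was measured here. The gene best kept, among those of at least 30 CPM in feeders, was the caveolar gene Cavin3 with 13.7 ± 0.378 CPM in co-culture and 43.1 ± 2.63 CPM in control feeders, a share of 32.5% with 0.5 CPM added. The iron exporter gene Slc40a1 had 18.2 ± 0.72 CPM in co-culture and 57.5 ± 3.76 CPM in control feeders, a share of 32.3% on the same scale. Olfml2b stood at 32.2% and the receptor gene Gpr176 at 27.3%. Among those least kept were the elastin gene Eln, the small proteoglycan gene Aspn, the R-spondin receptor gene Lgr5, and Lyz2, Igfbp5, C1qtnf3 and Chodl, all below 1%.

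The 10 largest falls by the naming rule, among genes of at least 10 CPM in a group, overlapped in part with the least kept genes. The rule ranked called genes whose groups did not overlap by fold change. The adjusted p-values and the separation of the groups are therefore part of the choice and no further support. Eln had 1.82, 1.62 and 1.7 CPM in co-culture, against 527, 567 and 606 CPM in control feeders. All 3 co-culture libraries were near the bottom of the scale (-8.36 ± 0.11, adjusted p = 1.95e-23). Lgr5 had 0.442, 0 and 0.341 CPM in co-culture, against 127, 133 and 173 CPM in control feeders. The fall was -9.09 ± 0.25 (adjusted p = 8.21e-18). Outside these 10, the least kept gene Igfbp5, which encodes an IGF-binding protein, had 20.7, 19.5 and 18.1 CPM in co-culture. Control feeders had 2377, 2496 and 2052 CPM of Igfbp5. Its fall was -6.89 ± 0.13 (adjusted p = 1.13e-21). Its low share in these same libraries picked it, so the p-value is no further support. The lectin gene Chodl had 0.0159 ± 0.0275 CPM in co-culture and 53.1 ± 10.6 CPM in control feeders, and the hormone gene Fgf21 0.0486 ± 0.0491 CPM in co-culture and 46 ± 7.97 CPM in control feeders. Lrrtm1 had 0.0162 ± 0.0281 CPM in co-culture and 10.6 ± 1.62 CPM in control feeders, and Adamtsl2 0.0327 ± 0.0567 CPM in co-culture and 10.1 ± 1.84 CPM in control feeders. Aspn, which encodes asporin, had 2.55 ± 0.17 CPM in co-culture and 624 ± 56.6 CPM in control feeders, and the cartilage matrix gene Comp 0.212 ± 0.151 CPM in co-culture and 38.9 ± 7.14 CPM in control feeders. C1qtnf3 (co-culture 0.566 ± 0.202, control feeders 114 ± 15.7 CPM) and the macrophage lysozyme gene Lyz2 completed the 10.

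Of 24 fibroblast markers 23 fell and 1 rose (median -1.80). The PDGF receptor gene Pdgfrb had 23.4 ± 1.39 CPM in co-culture and 569 ± 19.6 CPM in control feeders. The surface antigen gene Thy1 had 81.8 ± 1.98 CPM in co-culture and 946 ± 39 CPM in control feeders, and the transcription factor gene Snai2 4.79 ± 0.96 CPM in co-culture and 63.1 ± 1.17 CPM in control feeders. The exception was Eng, which encodes the TGF-β co-receptor endoglin (co-culture 86.7 ± 3.12, control feeders 37.1 ± 3.73 CPM, 1.22 ± 0.09). It stood at 101 CPM in feeders-removed ES cells.

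Of 15 interstitial collagen genes 14 fell and 1 rose (median -2.07). Col1a1, the α1 chain of type I collagen, had 1559, 1447 and 1541 CPM in co-culture, against 8034, 9355 and 9890 CPM in control feeders. Its groups were well apart (-2.58 ± 0.15, adjusted p = 5.06e-13), and feeders-removed ES cells had 732 CPM. Col12a1, a fibril-associated chain, fell further (co-culture 120 ± 6.27, control feeders 2206 ± 113 CPM, -4.20 ± 0.19). Col3a1 was the better kept of the abundant chains (co-culture 2235 ± 66.2, control feeders 4705 ± 667 CPM, -1.07 ± 0.14). The cartilage chain gene Col2a1 rose (co-culture 10.3 ± 0.714, control feeders 2.32 ± 0.0997 CPM, 2.15 ± 0.13).

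Of 16 proteoglycan and matricellular genes 13 fell and 2 rose (median -1.81). Biglycan (Bgn) had 1150 ± 31.1 CPM in co-culture and 5658 ± 201 CPM in control feeders. Sparc, a collagen-binding matricellular gene, had 1337 ± 17.3 CPM in co-culture and 5071 ± 358 CPM in control feeders. Ccn1, a matricellular target of YAP, rose (co-culture 614 ± 10.7, control feeders 380 ± 66.4 CPM, 0.69 ± 0.12). The proteoglycan gene Prelp also rose (co-culture 46.8 ± 1.29, control feeders 36.3 ± 11.6 CPM, adjusted p = 0.0479), but its groups overlapped and its call was lost under 3 alternatives.

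Of 20 elastic fibre and crosslinking genes 18 fell and 2 rose (median -1.65). The elastin-binding gene Fbln5 had 37.6 ± 1.94 CPM in co-culture and 1022 ± 48.2 CPM in control feeders. The microfibril gene Mfap4 had 14.4 ± 0.508 CPM in co-culture and 1080 ± 82.2 CPM in control feeders, and the fibrillin gene Fbn2 19.3 ± 1.9 CPM in co-culture and 375 ± 17.3 CPM in control feeders. The crosslinking oxidase gene Lox had 417 ± 29.3 CPM in co-culture and 3117 ± 403 CPM in control feeders. The collagen lysyl hydroxylase gene Plod2 (co-culture 242 ± 9.21, control feeders 92.1 ± 2.31 CPM, 1.40 ± 0.08) rose. So did the latent TGF-β binding gene Ltbp2 (co-culture 221 ± 5.22, control feeders 137 ± 6.13 CPM, 0.69 ± 0.20).

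Basement membrane genes were divided. Of 17, 8 fell and 5 rose (median -0.06). Col18a1, the collagen from which endostatin is cut, rose most (co-culture 1308 ± 20.4, control feeders 113 ± 7 CPM, 3.53 ± 0.10). The nidogen gene Nid2 had 312 ± 5.48 CPM in co-culture and 76.8 ± 10.9 CPM in control feeders, and the agrin gene Agrn 515 ± 11.9 CPM in co-culture and 231 ± 25 CPM in control feeders. Laminin chains went both ways. Lama1 (co-culture 37.2 ± 2.93, control feeders 9.85 ± 2.96 CPM) and Lama5 (co-culture 196 ± 4.57, control feeders 73.5 ± 7.7 CPM) rose. Lama2 (co-culture 6.56 ± 0.289, control feeders 97.2 ± 14.4 CPM) and Lamb2 (co-culture 80.1 ± 0.993, control feeders 337 ± 21.4 CPM) fell. Lamb1 (co-culture 483 ± 15.8, control feeders 461 ± 25.4 CPM, adjusted p = 0.551) and Lamc1 (co-culture 457 ± 9.69, control feeders 417 ± 14.9 CPM, adjusted p = 0.396) were not called.

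Of 21 proteases and inhibitors of the matrix 16 fell and 4 rose (median -1.27). The collagenase gene Mmp13 had 13.5 ± 0.9 CPM in co-culture and 183 ± 12.7 CPM in control feeders. The metalloprotease inhibitor gene Timp3 had 95.2 ± 4.2 CPM in co-culture and 867 ± 31.3 CPM in control feeders. The gelatinase gene Mmp9 rose (co-culture 37 ± 2.07, control feeders 1.34 ± 0.402 CPM, 4.78 ± 0.18). The protease inhibitor gene Serpine2 rose as well (co-culture 856 ± 17.2, control feeders 207 ± 14 CPM, 2.05 ± 0.09).

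Fibronectin and its integrin receptors, the kind of genes in the title of the study, fell in all 10 members tested (median -1.57). Fn1 (GRCm38 chromosome 1, 71585473 to 71653280) had 2365, 2297 and 2206 CPM in co-culture, against 11683, 12414 and 14002 CPM in control feeders. Co-culture libraries held about the same level as each other and lay below all feeder libraries (-2.47 ± 0.15, adjusted p = 3.66e-13). ES cells with feeders removed had 1618, 1708 and 1598 CPM, and co-culture exceeded them by 0.48 ± 0.14 (adjusted p = 0.00596). The receptor gene Itga5 (chromosome 15, 103344286 to 103366791) had 201, 207 and 193 CPM in co-culture, against 280, 307 and 302 CPM in control feeders, the smallest fall but 1 of the set (-0.57 ± 0.09, adjusted p = 2.28e-06). Its partner Itgb1 fell more (co-culture 527 ± 4.62, control feeders 1944 ± 76.6 CPM, -1.88 ± 0.08), and the αv gene Itgav lay between them (co-culture 113 ± 2.15, control feeders 262 ± 11.4 CPM, -1.21 ± 0.12). Itga4, whose product binds fibronectin outside the RGD motif, had 7.24 ± 0.898 CPM in co-culture and 51.5 ± 6.44 CPM in control feeders. Itgb5, a partner of αv, had 154 ± 1.3 CPM in co-culture and 376 ± 34.6 CPM in control feeders. Of 14 other integrins 8 rose and 5 fell (median 0.51). The laminin receptor subunit Itga6 had 153 ± 3.79 CPM in co-culture and 22.6 ± 3.05 CPM in control feeders, and its partner Itgb4 25 ± 0.876 CPM in co-culture and 2.8 ± 0.514 CPM in control feeders. The leukocyte integrins Itgb7 (co-culture 10.2 ± 0.687, control feeders 0.806 ± 0.216 CPM) and Itgal (co-culture 6.96 ± 0.481, control feeders 0.441 ± 0.0924 CPM) rose as well. The collagen-binding Itga11 (co-culture 10.6 ± 0.603, control feeders 155 ± 3.79 CPM) and the laminin-binding Itga7 (co-culture 6.21 ± 0.604, control feeders 64.3 ± 3.22 CPM) fell.

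**Figure D3:**
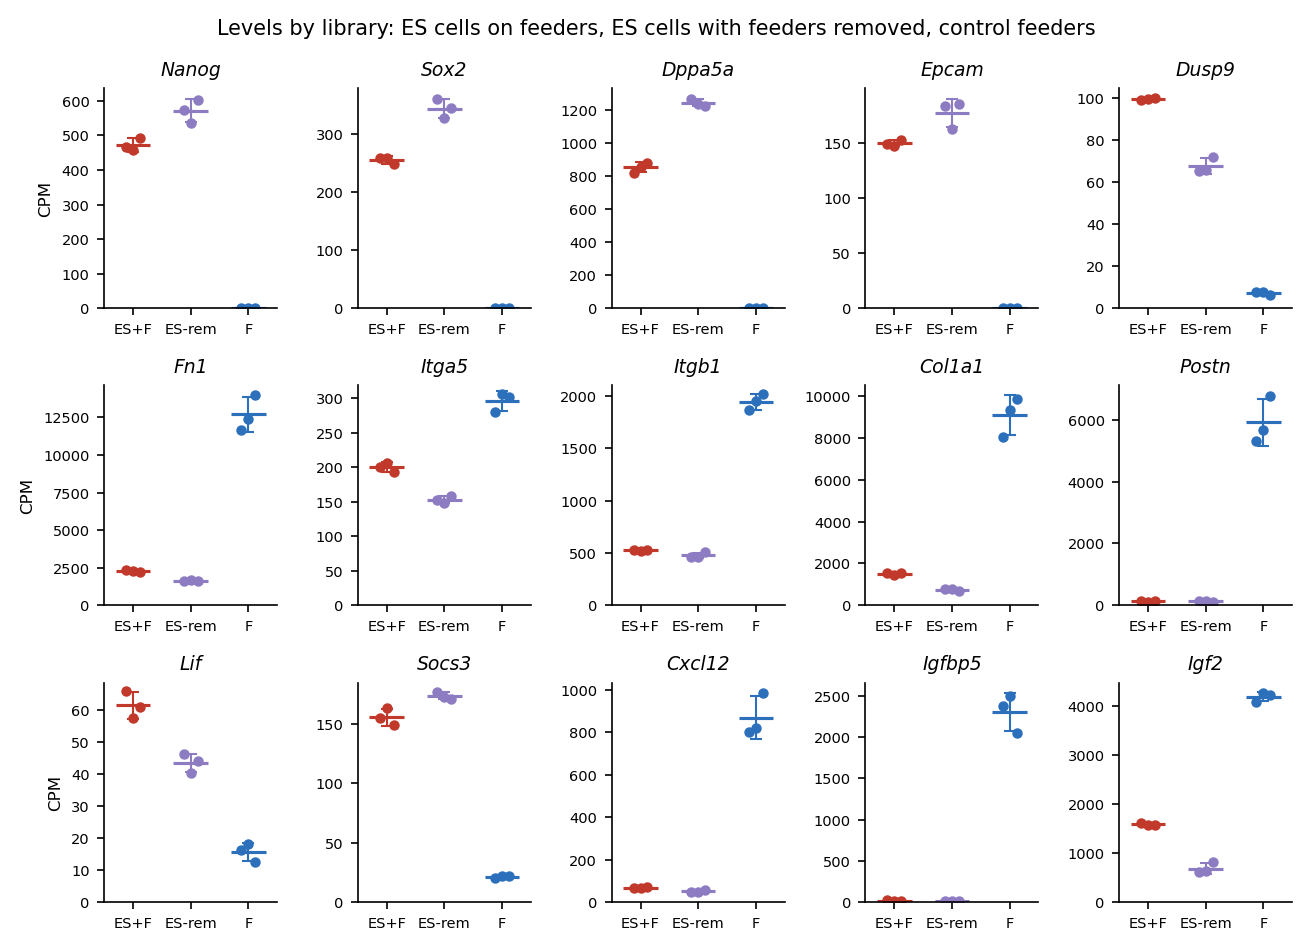
Level in CPM (y axis, from 0) of 15 genes in each library of ES cells on control feeders (ES+F), ES cells with feeders removed (ES-rem) and control feeders (F); points are libraries, bars the mean and SD (n = 3). Fn1 lies at 2206 to 2365 CPM in ES+F and 11683 to 14002 CPM in F, while Lif and Socs3 are higher in ES+F than in F.

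Of 22 focal adhesion genes 12 fell and 6 rose (median -0.47). Zyxin (Zyx) had 78.3 ± 2.02 CPM in co-culture and 263 ± 6.63 CPM in control feeders. The integrin-linked kinase gene Ilk had 65.5 ± 2.21 CPM in co-culture and 199 ± 11.8 CPM in control feeders. Talin 2 (Tln2), on the rising side, had 90.1 ± 4.04 CPM in co-culture and 47.8 ± 1.29 CPM in control feeders. Of 16 contractile genes 13 fell and 1 rose (median -1.57). Smooth muscle actin (Acta2) had 132 ± 13.2 CPM in co-culture and 631 ± 34.9 CPM in control feeders, and caldesmon (Cald1) 380 ± 8.36 CPM in co-culture and 1170 ± 39.7 CPM in control feeders. Srf, the transcription factor of these genes, rose (co-culture 90 ± 7.89, control feeders 46.3 ± 0.578 CPM, 0.96 ± 0.08).

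Targets of YAP and TEAD had 7 members higher and 7 lower of 16 (median -0.01). Tissue factor (F3) had 38.5 ± 1.42 CPM in co-culture and 224 ± 8.41 CPM in control feeders. The phosphatase gene Ptpn14 had 269 ± 4.72 CPM in co-culture and 86.3 ± 3.97 CPM in control feeders. Of 18 epithelial and mesenchymal genes 9 rose and 8 fell (median 2.97). The epithelial adhesion gene Epcam had 150 ± 2.76 CPM in co-culture and 0.0763 ± 0.0319 CPM in control feeders, and E-cadherin (Cdh1) 302 ± 5.04 CPM in co-culture and 0.114 ± 0.056 CPM in control feeders. The claudin gene Cldn4 (co-culture 71.7 ± 3.35, control feeders 0.382 ± 0.114 CPM) and the epithelial factor gene Grhl2 (co-culture 49.3 ± 2.03, control feeders 0.0189 ± 0.0327 CPM) rose as well. The mesenchymal cadherin gene Cdh11 fell (co-culture 109 ± 5.28, control feeders 760 ± 8.77 CPM).

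Secreted ligands and modulators of the feeder layer mostly fell: 22 of 28, with 5 that rose (median -1.71). Igfbp3 had 25.6 ± 1.25 CPM in co-culture and 618 ± 74.1 CPM in control feeders, and Dkk3 58.1 ± 0.675 CPM in co-culture and 389 ± 48.3 CPM in control feeders. The chemokine gene Cxcl12 had 67.1, 65.1 and 69.6 CPM in co-culture, against 802, 818 and 987 CPM in control feeders. The co-culture libraries lay below every feeder library (-3.69 ± 0.28). Insulin-like growth factor 2 (Igf2) had 1590 ± 16.3 CPM in co-culture and 4201 ± 100 CPM in control feeders. Feeders-removed ES cells had 687 CPM of Igf2.

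Of the 5 that rose, Igfbp2 changed most (co-culture 349 ± 16.6, control feeders 81.4 ± 5.83 CPM, 2.10 ± 0.10). The keratinocyte growth factor gene Fgf7 had 50.4 ± 1.79 CPM in co-culture and 24.3 ± 1.52 CPM in control feeders. Bmp6 had 8.87 ± 0.214 CPM in co-culture and 2.89 ± 0.404 CPM in control feeders, and the activin antagonist gene Fst 21.8 ± 0.594 CPM in co-culture and 12 ± 1.28 CPM in control feeders. The hepatocyte growth factor gene Hgf had 12.4 ± 0.421 CPM in co-culture and 7.07 ± 0.849 CPM in control feeders. Stem cell factor (Kitl) was not called (co-culture 32.4 ± 2.58, control feeders 37.2 ± 4.77 CPM, adjusted p = 0.0926).

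Of 18 LIF and STAT3 genes 9 rose and 8 fell (median 0.55), and ligand, receptor and targets differed. Lif itself had 66, 57.6 and 60.9 CPM in co-culture, against 16.2, 18.2 and 12.5 CPM in control feeders. All 3 co-culture libraries were above the feeders (1.98 ± 0.11, adjusted p = 1.63e-13). Lif stood at 43.6 CPM in feeders-removed ES cells and 12.9 CPM with ATN161. The receptor subunit gene Lifr fell (co-culture 31.2 ± 2.3, control feeders 39.8 ± 4.11 CPM, -0.35 ± 0.10), a call lost under 4 alternatives. Il6st, which encodes gp130, fell further (co-culture 195 ± 7.06, control feeders 396 ± 50.4 CPM, -1.02 ± 0.11). Stat3 fell too (co-culture 181 ± 2.9, control feeders 254 ± 6.25 CPM, -0.48 ± 0.07). The STAT3 target and feedback inhibitor gene Socs3 had 155, 163 and 149 CPM in co-culture, against 20.2, 22.1 and 22.1 CPM in control feeders. Its rise was 2.86 ± 0.08 (adjusted p = 1.28e-18). The kinase gene Pim3, another target, had 85.4 ± 3.57 CPM in co-culture and 16.9 ± 1.59 CPM in control feeders. The related cytokine gene Clcf1 (co-culture 2.75 ± 0.187, control feeders 18.5 ± 1.33 CPM) and the oncostatin receptor gene Osmr (co-culture 69.1 ± 2.76, control feeders 223 ± 11.9 CPM) fell.

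In the other pathways of early development, several ligands known from ES cells rose and several receptors fell. Of 15 NODAL and activin genes tested 10 rose and 3 fell (median 1.24). Nodal had 75.1, 80.1 and 76.8 CPM in co-culture and no count in feeders. Its effector gene Foxh1 had 34.8 ± 1.77 CPM in co-culture and 0.0193 ± 0.0334 CPM in control feeders. The receptor gene Acvr2b rose (co-culture 54.6 ± 1.72, control feeders 4.87 ± 0.41 CPM), and the receptor gene Acvr2a fell (co-culture 19.4 ± 0.698, control feeders 81.4 ± 5.93 CPM). The proprotein convertase gene Furin, which cuts the NODAL precursor, fell (co-culture 60.9 ± 3.61, control feeders 172 ± 6.59 CPM).

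Of 18 FGF and ERK genes tested 10 rose and 7 fell (median 0.99). The ERK target Etv5 had 317 ± 13.4 CPM in co-culture and 36 ± 2.34 CPM in control feeders. The receptor Fgfr1 had 181 ± 7.47 CPM in co-culture and 387 ± 21.5 CPM in control feeders, and Fgfr2 9.78 ± 0.355 CPM in co-culture and 32.4 ± 1.14 CPM in control feeders. The ligand Fgf2, long used in stem cell culture, had 9.34 ± 1.17 CPM in co-culture and 52.4 ± 6.45 CPM in control feeders.

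Of 18 BMP and ID genes 8 rose and 8 fell (median 0.17). The ligand gene Bmp7 had 9.35 ± 0.631 CPM in co-culture and 0.307 ± 0.135 CPM in control feeders, and the inhibitor gene Smad7 57.4 ± 0.997 CPM in co-culture and 20.8 ± 0.389 CPM in control feeders. The receptor gene Bmpr2 had 48 ± 2.4 CPM in co-culture and 143 ± 4.91 CPM in control feeders, and Bmpr1a 77.5 ± 1.41 CPM in co-culture and 161 ± 12 CPM in control feeders. Of 18 WNT genes tested 9 rose and 8 fell (median 0.28). The nuclear effector Tcf7 had 50.4 ± 0.91 CPM in co-culture and 2.57 ± 0.341 CPM in control feeders, and Tcf7l1, a repressor of WNT targets, 72.1 ± 2.98 CPM in co-culture and 23.6 ± 2.39 CPM in control feeders. The receptor Fzd2 had 18 ± 1.9 CPM in co-culture and 214 ± 18 CPM in control feeders.

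Some genes lay outside the range spanned by control feeders and feeders-removed ES cells, called the 2 reference groups here. The label does not tell whether the feeders-removed cells were a culture of their own, and they held fibroblast marker RNA. The 10 named by rule as above both control feeders and feeders-removed ES cells are given with both comparisons, which share the co-culture libraries. Over all genes tested, co-culture was called higher than feeders-removed ES cells in 26.5% and lower in 25.5%. Nos2, the inducible nitric oxide synthase, had 25.1, 25.6 and 21.3 CPM in co-culture, 1.59, 2.62 and 2.44 CPM in feeders-removed ES cells and no count in control feeders. Co-culture was at least 422-fold above control feeders, and by 3.43 ± 0.19 above feeders-removed ES cells (adjusted p = 9.1e-11). Egln3, the hypoxia-induced prolyl hydroxylase that acts on HIF, had 68.9, 59.6 and 71.8 CPM in co-culture, against 6.22, 6.47 and 7.41 CPM in control feeders (3.32 ± 0.12, adjusted p = 5.32e-17). Feeders-removed ES cells had 11.5, 11.3 and 10.8 CPM (co-culture over these 2.57 ± 0.11, adjusted p = 1.22e-12). Bnip3, a mitophagy receptor induced by HIF, had 136, 114 and 128 CPM in co-culture, against 36.6, 33.1 and 40.5 CPM in control feeders (1.78 ± 0.10, adjusted p = 7.37e-14). With feeders removed it had 30.9, 29.3 and 35.8 CPM (1.98 ± 0.10, adjusted p = 5.78e-12). The naming rule itself required a call in both comparisons and every co-culture library above all libraries of both reference groups. The calls and the lack of overlap are therefore no further support for the genes named here. In all, 735 genes met the rule, beside 15389 genes tested. The rule left out predicted models and genes without a symbol, and asked for at least 10 CPM in co-culture. Ndufa4l2, also a HIF target, had 21.4 ± 0.912 CPM in co-culture, 2.66 ± 0.453 CPM with feeders removed and 5.36 ± 3 CPM in control feeders. The mast cell protease gene Mcpt8 had 16.9 ± 1.14 CPM in co-culture, 3.98 ± 1.4 CPM with feeders removed and 1.84 ± 0.415 CPM in control feeders. The junctophilin gene Jph2 had 38.4 ± 1.48 CPM in co-culture, 11.2 ± 2.5 CPM with feeders removed and 8.7 ± 1.15 CPM in control feeders. The small GTPase gene Arl4d had 17.3 ± 1.01 CPM in co-culture, 5.23 ± 0.422 CPM with feeders removed and 2.47 ± 0.544 CPM in control feeders. Arl4d and the keratin gene Krt8 (co-culture 14.4 ± 0.607, feeders removed 4.64 ± 0.326, control feeders 1.8 ± 0.118 CPM) were also high with ATN161, at 30.9 and 15.5 CPM, whereas Nos2, Egln3 and Bnip3 stood at 2.04, 12.6 and 30.2 CPM there. Glipr1 (co-culture 17.9 ± 1.34, feeders removed 5.84 ± 2.01, control feeders 2.49 ± 0.115 CPM) and the receptor adaptor gene Grb14 (co-culture 38.8 ± 1.95, feeders removed 12.9 ± 1.76, control feeders 10.3 ± 1.48 CPM) completed the 10.

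**Figure D4:**
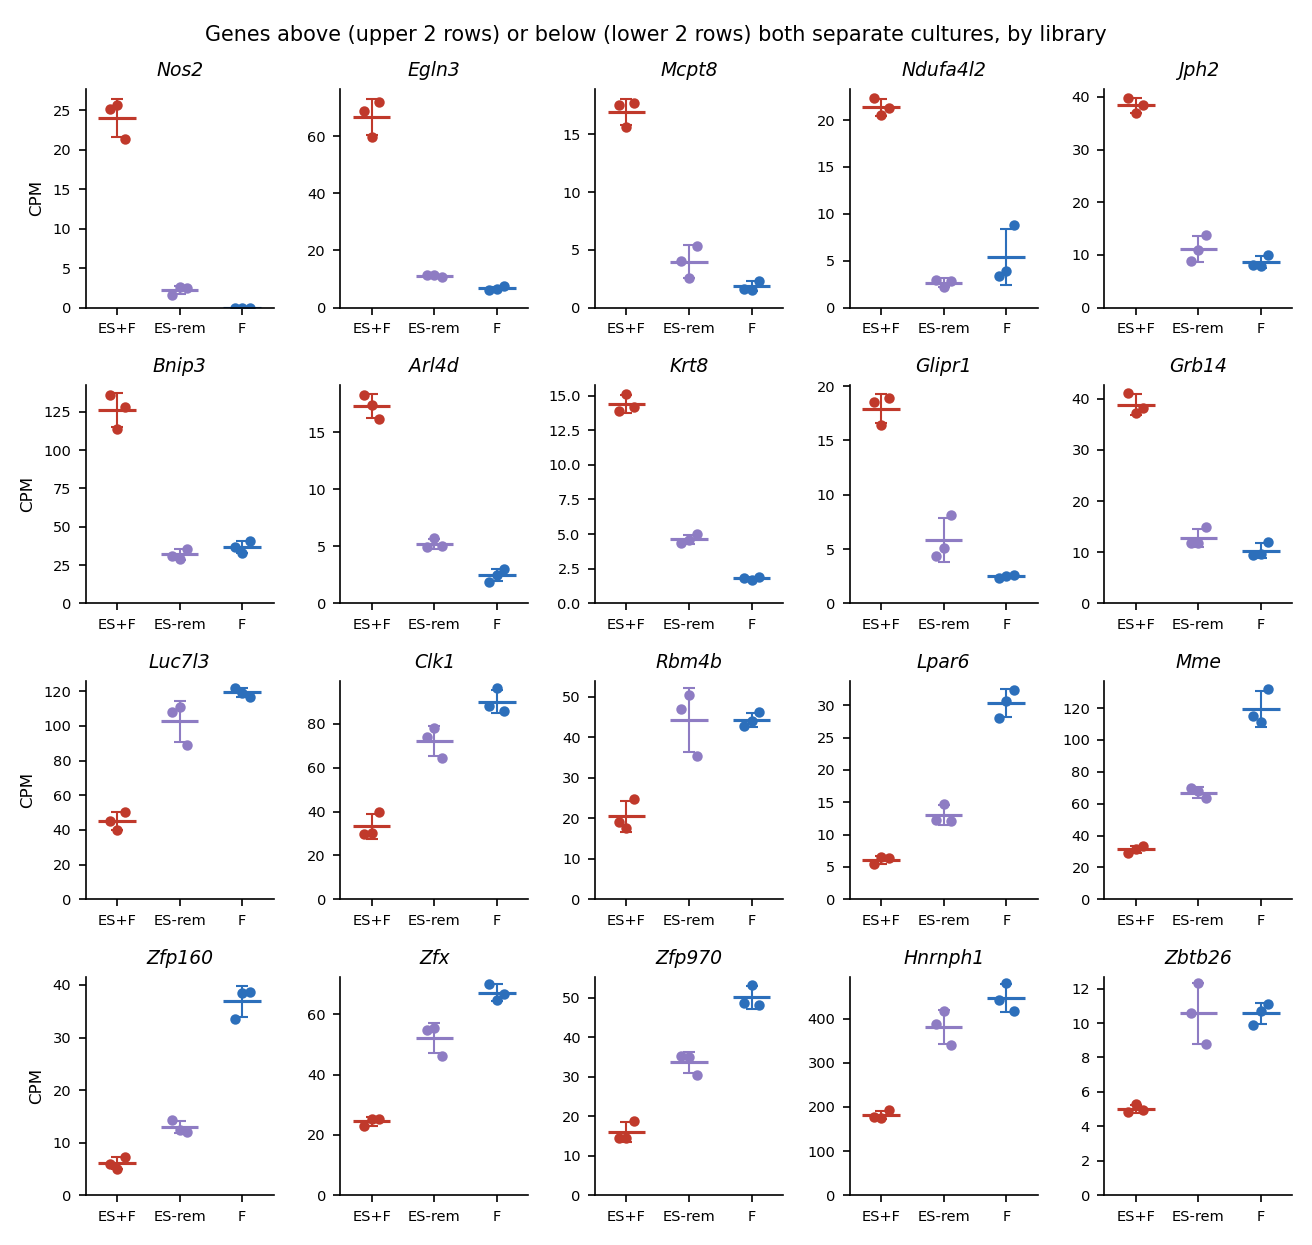
Level in CPM (y axis, from 0) of the 20 genes named as above or below both control feeders and feeders-removed ES cells. Points are libraries of ES cells on control feeders (ES+F), ES cells with feeders removed (ES-rem) and control feeders (F). Bars are the mean and SD (n = 3). Nos2 reaches 21.3 to 25.6 CPM in ES+F and is at 0 in F, and the lower 2 rows hold genes such as Luc7l3 that are lowest in ES+F.

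Glycolysis and hypoxia genes mostly rose, 19 of 23 with 3 that fell (median 1.23). The glucose transporter gene Slc2a3 had 1779, 1633 and 1723 CPM in co-culture, against 21.9, 22.3 and 21.3 CPM in control feeders. Its rise was 6.29 ± 0.13 (adjusted p = 3.34e-21), with 1264 CPM in feeders-removed ES cells. Slc2a1, the other main glucose transporter gene, had 657 ± 49.5 CPM in co-culture, 262 ± 8.18 CPM with feeders removed and 82.5 ± 7.37 CPM in control feeders. The lactate exporter gene Slc16a3 had 66.3 ± 5.88 CPM in co-culture, 14.8 ± 1.55 CPM with feeders removed and 24.7 ± 6.14 CPM in control feeders. Pdk1, which holds pyruvate back from mitochondria, had 157 ± 4.25 CPM in co-culture, 131 ± 2.27 CPM with feeders removed and 16 ± 2.66 CPM in control feeders. Vegfa, the angiogenic ligand, fell against control feeders and was above feeders-removed ES cells, with 67.7 ± 3.73 CPM in co-culture, 23.3 ± 1.99 CPM with feeders removed and 283 ± 43.6 CPM in control feeders. The glycolytic gene Aldoc fell (co-culture 7.9 ± 0.83, control feeders 23.4 ± 3.33 CPM). Ndrg1 (co-culture 45.7 ± 3.22, control feeders 55.6 ± 7.16 CPM, adjusted p = 0.0118) had overlapping groups and lost its call under 8 alternatives. The carbonic anhydrase gene Car9 was not called (co-culture 2.36 ± 0.216, control feeders 2.91 ± 0.269 CPM, adjusted p = 0.186). The labels give no oxygen level or cell density for either culture.

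HIF binds a core of 5 letters, ACGTG, which is also met by chance and by other factors. It was found (either strand) in 21.78% of the 27025 genes with a RefSeq promoter of 300 bases, and in 15 of 21 glycolysis and hypoxia genes with one. These 15 include Vegfa and Aldoc, which fell, and Car9, which was not called. Egln3 and Bnip3, named as above both reference groups, and the transporter gene Slc2a1 are shown with the core in capitals. The windows are chr12:54204074-54204124 (- strand), chr7:138909584-138909639 (- strand) and chr4:119108684-119108738 (+ strand) of GRCm38.p6. In Bnip3 both strands read the core and the 2 matches overlap.
Egln3: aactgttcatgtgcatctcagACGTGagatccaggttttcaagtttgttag
Bnip3: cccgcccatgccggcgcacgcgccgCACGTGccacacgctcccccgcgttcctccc
Slc2a1: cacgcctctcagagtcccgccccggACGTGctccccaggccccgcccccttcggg

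Immediate early genes, which are switched on within minutes of a stimulus, were high in co-culture: 14 of 18 rose and 3 fell (median 1.58). Fos had 732, 737 and 723 CPM in co-culture, against 20.7, 18.3 and 19.7 CPM in control feeders. Every co-culture library exceeded every feeder library (5.22 ± 0.09, adjusted p = 3.29e-22). Feeders-removed ES cells had 263, 244 and 257 CPM and ES cells with ATN161 6.52, 5.42 and 5.45 CPM. Fosb had 530, 648 and 504 CPM in co-culture, against 3.9, 4.1 and 3.47 CPM in control feeders, a rise of 7.19 ± 0.15 (adjusted p = 3.07e-21). The zinc finger gene Egr1 had 1101 ± 80 CPM in co-culture and 135 ± 19.8 CPM in control feeders. The phosphatase gene Dusp1 (co-culture 276 ± 12.5, control feeders 34.8 ± 1.49 CPM) and the mRNA decay gene Zfp36 (co-culture 225 ± 14.2, control feeders 25.6 ± 2.5 CPM) also rose. The largest fall of the list was of Myc (co-culture 14.4 ± 0.774, control feeders 44.9 ± 9.26 CPM, -1.64 ± 0.13). Fosl2 (co-culture 103 ± 7.87, control feeders 172 ± 1.4 CPM) and Klf6 (co-culture 155 ± 11.6, control feeders 198 ± 7.92 CPM) also fell, and Fosl1 was not called (adjusted p = 0.121).

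Of 21 chemokine and cytokine genes tested 14 rose and 5 fell (median 1.99). The neutrophil chemokine gene Cxcl1 had 78.8, 77.2 and 73.8 CPM in co-culture, against 1.98, 1.79 and 2.49 CPM in control feeders. The groups were apart (5.19 ± 0.17, adjusted p = 6.63e-18). Feeders-removed ES cells had 35 CPM of Cxcl1, and ES cells with ATN161 3.45 CPM. Cxcl5 had 188 ± 6.14 CPM in co-culture and 28.6 ± 1.22 CPM in control feeders. Ccl5 had 12 ± 0.144 CPM in co-culture and 0.442 ± 0.222 CPM in control feeders, and the interferon-induced Cxcl10 36.1 ± 1.86 CPM in co-culture and 3.82 ± 0.904 CPM in control feeders. Beside Cxcl12, Cxcl14 (co-culture 4.8 ± 0.901, control feeders 22.2 ± 1.86 CPM), Ccl8 (co-culture 1.93 ± 0.468, control feeders 8.47 ± 0.806 CPM) and Ccl9 (co-culture 0.21 ± 0.122, control feeders 3.34 ± 0.921 CPM) fell.

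Of 21 interferon response genes tested 17 rose and 4 fell (median 1.09). The antiviral oligoadenylate synthetase gene Oas2 had 43.5 ± 2.03 CPM in co-culture and 3.83 ± 0.494 CPM in control feeders, and Oas3 11.9 ± 0.426 CPM in co-culture and 0.439 ± 0.113 CPM in control feeders. Reads of this family may be split among near copies. The regulator gene Irf7 had 140 ± 2.16 CPM in co-culture and 20 ± 2.24 CPM in control feeders. Isg15, a ubiquitin-like modifier, rose less (co-culture 84 ± 6.38, control feeders 55.8 ± 2.96 CPM, 0.59 ± 0.09). Ifit2 (co-culture 23.6 ± 1.89, control feeders 82.1 ± 7.11 CPM) and Stat2 (co-culture 89 ± 4.51, control feeders 176 ± 6.24 CPM) fell. Smaller falls were seen for Irf9 (-0.29 ± 0.07, adjusted p = 0.000733) and Ifih1 (-0.33 ± 0.13, adjusted p = 0.0237). The groups of Ifih1 overlapped, and the calls of Irf9 and Ifih1 were lost under 1 and 6 alternatives.

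Of 13 MHC and antigen presentation genes tested 7 rose and 6 fell (median 0.48). The class I gene H2-D1 had 542 ± 9.3 CPM in co-culture and 276 ± 29.1 CPM in control feeders, and H2-K1 430 ± 16.3 CPM in co-culture and 263 ± 13.5 CPM in control feeders. B2m, their shared light chain, was lower (co-culture 720 ± 52.8, control feeders 954 ± 49.1 CPM).

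Promoters of interferon genes commonly hold pairs of GAAA blocks, to which the interferon-activated ISGF3 complex binds. The letters GAAANNGAA (either strand) were found in 9.76% of genes with a RefSeq promoter and in 11 of 17 interferon response genes with one, among them Stat2 and Ifih1, which fell. Oas3, Isg15 and Rsad2, which rose to different extents (log2 4.73, 0.59 and 1.49), are shown with the match in capitals from chr5:120777695-120777759, chr4:156200851-156200921 and chr12:26456538-26456596 (all - strand, GRCm38.p6). In Oas3 and Isg15 several overlapping matches run together, and in Rsad2 the single match reads on the opposite strand.
Oas3: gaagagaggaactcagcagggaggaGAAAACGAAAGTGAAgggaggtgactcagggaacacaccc
Isg15: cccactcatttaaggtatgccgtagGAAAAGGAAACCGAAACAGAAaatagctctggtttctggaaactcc
Rsad2: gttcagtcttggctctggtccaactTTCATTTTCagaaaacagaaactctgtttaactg

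Cholesterol synthesis fell as a block, in 20 of 20 genes (median -2.30), 19 of them by at least 2-fold. Sc5d, a late desaturase of the pathway, had 37.4, 38.6 and 36.1 CPM in co-culture, against 388, 409 and 369 CPM in control feeders. Every co-culture library was far below the feeders (-3.38 ± 0.08, adjusted p = 5.17e-20), and feeders-removed ES cells stood at 37.5 CPM. Hmgcs1, which makes HMG-CoA, had 159 ± 3.79 CPM in co-culture, 215 ± 5.77 CPM with feeders removed and 767 ± 103 CPM in control feeders, and Nsdhl 30.1 ± 0.606 CPM in co-culture, 30.7 ± 2.23 CPM with feeders removed and 153 ± 21.6 CPM in control feeders. The regulator gene Srebf2 fell least (co-culture 259 ± 9.32, control feeders 350 ± 19.4 CPM, -0.43 ± 0.08). The sterol response core TCACNCCAC (either strand) was found in 1.44% of genes with a RefSeq promoter and in 1 of 14 genes of the list with one. This was Hmgcs1, shown from chr13:119690189-119690247 (+ strand, GRCm38.p6) with the match in capitals.
Hmgcs1: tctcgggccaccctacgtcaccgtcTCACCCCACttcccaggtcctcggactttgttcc

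Chaperones and folding enzymes of the endoplasmic reticulum, through which secreted matrix passes, fell in 16 of 18 genes, with 2 that rose (median -0.76). The chaperone BiP (Hspa5) had 643 ± 17.9 CPM in co-culture, 816 ± 16.9 CPM with feeders removed and 2294 ± 341 CPM in control feeders. Herpud1, of ER-associated degradation, had 22.7 ± 0.507 CPM in co-culture, 25 ± 1.21 CPM with feeders removed and 145 ± 17.5 CPM in control feeders. Of 19 ATF4 stress genes 9 fell and 5 rose (median -0.16). Ddit3, which encodes CHOP, had 25.1 ± 0.78 CPM in co-culture and 228 ± 44.1 CPM in control feeders. Asparagine synthetase (Asns) had 341 ± 13.9 CPM in co-culture and 211 ± 39.5 CPM in control feeders. Of 15 cytosolic heat shock genes 8 rose and 5 fell (median 0.37). The small heat shock gene Hspb1 had 436 ± 1.19 CPM in co-culture and 47.4 ± 13 CPM in control feeders, and Cryab 24.3 ± 0.946 CPM in co-culture and 71.4 ± 3.86 CPM in control feeders.

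**Figure D5:**
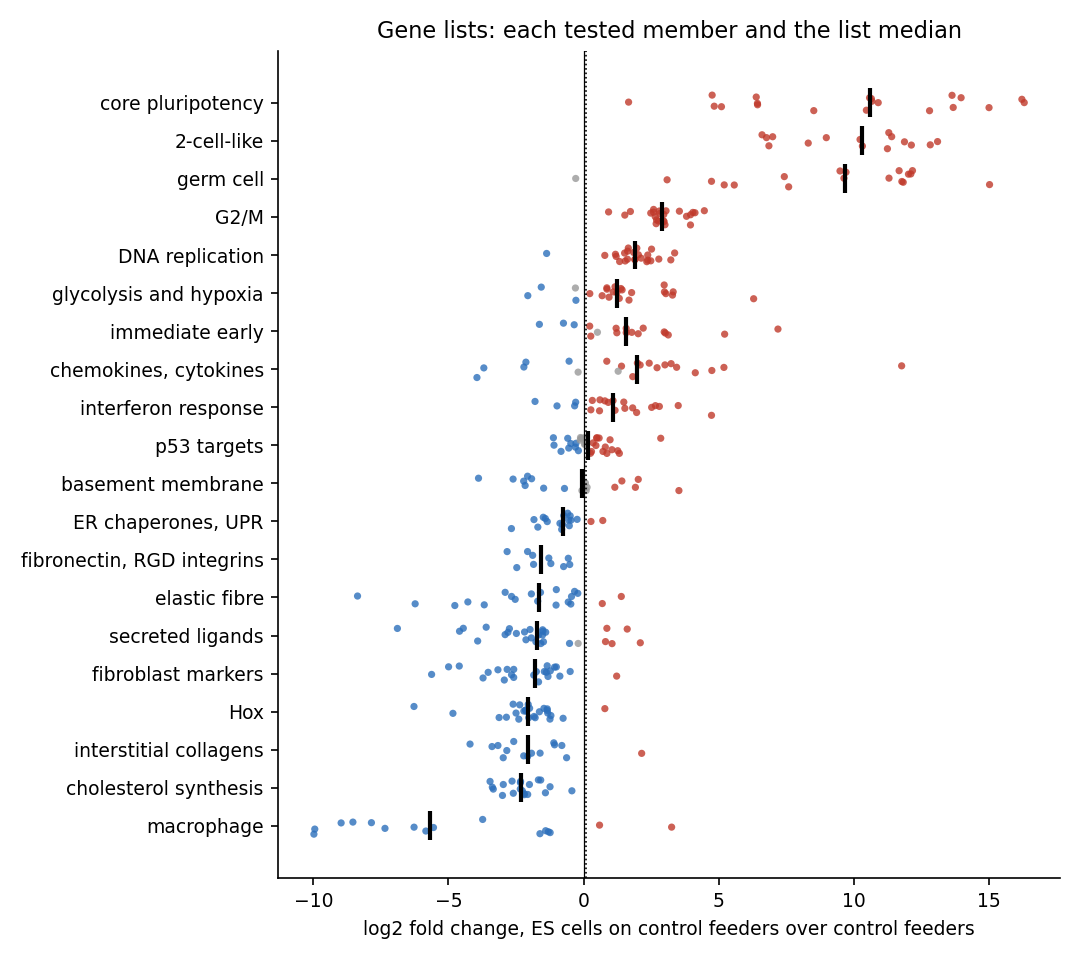
Log2 fold change of ES cells on control feeders over control feeders (x axis) for every tested member of 20 gene lists (rows); red points were called higher, blue lower and grey not called, black bars are list medians and the dotted line is the median of all genes at 0.08. Values of genes without counts in a group depend on the prior count. Pluripotency lists lie at the right, cholesterol and matrix lists at the left, and p53 targets on both sides of 0.

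Proliferation genes rose. All 24 G2/M genes rose (median 2.89). The mitotic kinase gene Plk1 had 193, 191 and 181 CPM in co-culture, against 11, 11.5 and 11.7 CPM in control feeders. The co-culture libraries lay above the feeders throughout (4.04 ± 0.09, adjusted p = 6.75e-21), and cyclin B1 (Ccnb1) had 379 ± 15.9 CPM in co-culture and 17.1 ± 0.918 CPM in control feeders. Mki67, the Ki-67 antigen gene, rose least (co-culture 114 ± 5.75, control feeders 59.9 ± 2.61 CPM, 0.93 ± 0.11). DNA replication genes rose in 23 of 24 cases, with 1 fall (median 1.90). The helicase gene Mcm5 had 287 ± 11.2 CPM in co-culture and 30.6 ± 1.25 CPM in control feeders. Cyclin E2 (Ccne2) fell (co-culture 5.05 ± 0.467, control feeders 13.1 ± 0.57 CPM). Among 10 CDK inhibitors and pocket proteins 4 rose and 5 fell (median -0.12). Cdkn1c, the inhibitor p57, had 13.3, 12.4 and 14.2 CPM in co-culture, against 335, 319 and 366 CPM in control feeders, with no overlap (-4.68 ± 0.10, adjusted p = 4.87e-21). Cdkn1b (co-culture 22.6 ± 0.111, control feeders 47.8 ± 1.51 CPM) fell, and Cdkn2a (co-culture 63.8 ± 1.79, control feeders 30.2 ± 1.94 CPM) and the pocket protein gene Rb1 (co-culture 47.5 ± 0.884, control feeders 13.9 ± 1.76 CPM) rose.

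Trp53, which encodes p53, had 289, 300 and 291 CPM in co-culture, against 123, 124 and 112 CPM in control feeders. It rose in co-culture (1.30 ± 0.09, adjusted p = 7.9e-12), and feeders-removed ES cells had 374 CPM. Its targets did not move in 1 direction. Of 30 measured, 15 rose and 9 fell (median 0.17), 24 called in all beside 84.2% of all genes. Mdm2, the ubiquitin ligase of p53, had 613 ± 22.7 CPM in co-culture and 437 ± 8.38 CPM in control feeders (0.49 ± 0.07, adjusted p = 5.79e-07). Cdkn1a, which encodes p21, had 930, 969 and 894 CPM in co-culture, against 680, 649 and 663 CPM in control feeders. It was above control feeders (0.49 ± 0.11, adjusted p = 0.000459). It was also above feeders-removed ES cells (562 CPM, 0.73 ± 0.11, adjusted p = 1.67e-05). The desmosomal gene Perp had 171 ± 4.53 CPM in co-culture and 23.6 ± 1.25 CPM in control feeders, and the antiproliferative gene Btg2 609 ± 28.5 CPM in co-culture and 294 ± 2.47 CPM in control feeders. The tetraspanin gene Cd82 (co-culture 17.3 ± 1.09, control feeders 37.6 ± 3.51 CPM) and the polymerase gene Polk (co-culture 42.4 ± 0.935, control feeders 75.7 ± 3.05 CPM) fell.

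Chromatin genes mostly rose, and genes of position and imprinting mostly fell. Of 12 DNA methylation genes 9 rose and 1 fell (median 1.44). Beside Dnmt3l, the dioxygenase gene Tet1 had 145 ± 6.1 CPM in co-culture and 7.05 ± 0.483 CPM in control feeders. The exception Tet3 had 15.7 ± 2.08 CPM in co-culture and 49.8 ± 0.54 CPM in control feeders. Of 18 Polycomb and chromatin genes 14 rose and 1 fell (median 1.16). The one that fell was Bmi1, a subunit of Polycomb complex 1 (co-culture 23 ± 1.46, control feeders 66.5 ± 6.02 CPM). Of 26 Hox genes, which record position along the body axis, 25 fell and 1 rose (median -2.04). Hoxb9 had 15.1 ± 1.86 CPM in co-culture and 70 ± 7.95 CPM in control feeders, and Hoxd3 0.129 ± 0.0267 CPM in co-culture and 10.5 ± 1.48 CPM in control feeders.

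Of 16 imprinted genes tested 11 fell and 4 rose (median -1.45). Mest (co-culture 100 ± 4.96, control feeders 395 ± 25.8 CPM) and Grb10 (co-culture 134 ± 4.44, control feeders 717 ± 33 CPM) fell beside Cdkn1c and Igf2. Snrpn (co-culture 39.7 ± 0.259, control feeders 9.42 ± 0.251 CPM) and Peg10 (co-culture 165 ± 9.34, control feeders 21.6 ± 4.36 CPM) rose. All 4 Y-linked genes tested rose (median 3.67). The helicase gene Ddx3y had 16.1 ± 0.904 CPM in co-culture, 13.5 ± 1.1 CPM with feeders removed and 1.26 ± 0.0163 CPM in control feeders, and 3.69 CPM with ATN161. The cultures thus differed in Y-linked RNA, and the labels give the sex of neither cell type.

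Of 24 oxidative phosphorylation genes 21 rose and none fell (median 0.64), with Uqcrc1 at 354 ± 6.96 CPM in co-culture and 131 ± 3.62 CPM in control feeders. Of 24 proteins of the large ribosomal subunit 22 rose and none fell (median 0.58), with Rpl8 at 1268 ± 12.6 CPM in co-culture and 561 ± 22.4 CPM in control feeders. Of 17 genes often taken as references 11 rose and 5 fell (median 0.31). Their fold changes ran between 1.38 ± 0.07 for Gpi1 and -1.56 ± 0.08 for Reep5.

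Markers of other cell types were examined for what else either culture held. Of 16 macrophage genes tested 14 fell and 2 rose (median -5.70, or -5.57 with 4 members at their bound). Lyz2 had 0.442, 0.524 and 0.486 CPM in co-culture, against 91.7, 124 and 124 CPM in control feeders, and the cathepsin gene Ctss 0.179 ± 0.124 CPM in co-culture and 30.1 ± 4.65 CPM in control feeders. The defining genes C1qa, C1qb, C1qc and Tyrobp had no count in any co-culture library, which allows up to 0.0528 CPM, and averaged 2.55, 6.94, 6.78 and 3.45 CPM in control feeders. The summed level of the list was 109 to 119 CPM in co-culture and 177 to 239 CPM in control feeders, of which Laptm5, a lysosomal membrane gene that rose, made up 96.8 and 10.1 CPM. Control feeders thus held RNA of these 4 genes that was not detected in co-culture at this depth. The part of macrophage RNA in the lower chemokines of co-culture, Cxcl12, Ccl8 and Ccl9, was not tested.

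All 5 adipocyte genes tested fell (median -1.30). Their summed level was 44.2 to 46.4 CPM in co-culture and 424 to 494 CPM in control feeders. Lipoprotein lipase (Lpl) had 15.7 ± 1.2 CPM in co-culture and 402 ± 32.6 CPM in control feeders, and the fatty acid transporter gene Cd36 0.307 ± 0.0233 CPM in co-culture and 12.8 ± 3.17 CPM in control feeders. The defining genes Adipoq, Plin1 and Lep were below the filter. Of 14 mesothelial genes 7 fell and 5 rose (median -0.62), with mesothelin (Msln) at 1.77 ± 0.464 CPM in co-culture and 28.1 ± 3.12 CPM in control feeders. Of 8 skeletal muscle genes tested 5 fell and 3 rose (median -1.07). The troponin gene Tnnt2 had 0.291 ± 0.0477 CPM in co-culture and 20.4 ± 0.195 CPM in control feeders, and the myosin light chain gene Mylpf 47 ± 1.6 CPM in co-culture and 0.497 ± 0.139 CPM in control feeders. The defining regulators Myod1 and Myog were below the filter.

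Of 9 endothelial genes tested 4 rose and 4 fell (median 0.78). Pecam1, which mouse ES cells also express, had 99.2 ± 2.47 CPM in co-culture and 0.115 ± 0.0586 CPM in control feeders. The vascular genes Kdr (co-culture 0.613 ± 0.0908, control feeders 5.48 ± 0.731 CPM) and Erg (co-culture 0.13 ± 0.103, control feeders 2.77 ± 0.507 CPM) fell. Of 8 cartilage and bone genes tested 4 rose and 4 fell (median 0.20). Alkaline phosphatase (Alpl), which ES cells also express, had 67.7 ± 1.57 CPM in co-culture and 0.21 ± 0.0855 CPM in control feeders.

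Markers of differentiation were mixed. Of 12 endoderm genes tested 6 rose and 3 fell (median 0.63). Gata6 had 7.23 ± 0.458 CPM in co-culture and 4.27 ± 0.864 CPM in control feeders, and Sox17 0.737, 0.381 and 0.778 CPM in co-culture with no count in control feeders. Pdgfra, which fibroblasts also express, had 61 ± 2.23 CPM in co-culture and 466 ± 122 CPM in control feeders. Of 11 trophectoderm genes tested 7 rose and 1 fell (median 2.13). Tfap2c, which ES cells also express, had 104 ± 0.613 CPM in co-culture and 0.057 ± 0.0566 CPM in control feeders, while the defining genes Cdx2 and Elf5 were below the filter. Of 9 neuroectoderm genes tested 5 rose and 4 fell (median 0.54). Sox21 had 13.2 ± 0.901 CPM in co-culture and 0.0377 ± 0.0653 CPM in control feeders, and Ncam1 37.1 ± 0.857 CPM in co-culture and 131 ± 7.56 CPM in control feeders.

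Genes below both control feeders and feeders-removed ES cells by the rule included several of mRNA splicing. Luc7l3, a component near the U1 snRNP, had 45.1, 40.2 and 50.5 CPM in co-culture, against 122, 119 and 117 CPM in control feeders (-1.40 ± 0.10, adjusted p = 7.04e-12). Feeders-removed ES cells had 108, 111 and 89.3 CPM (-1.18 ± 0.10, adjusted p = 4.21e-09). Clk1, a kinase of splicing factors, had 33.2 ± 5.72 CPM in co-culture, 72.2 ± 6.96 CPM with feeders removed and 90.2 ± 5.36 CPM in control feeders. The splicing factor gene Hnrnph1 had 182 ± 9.18 CPM in co-culture, 382 ± 38.1 CPM with feeders removed and 447 ± 31.4 CPM in control feeders. The RNA-binding gene Rbm4b had 20.5 ± 3.78 CPM in co-culture, 44.3 ± 7.92 CPM with feeders removed and 44.3 ± 1.78 CPM in control feeders. Here too the rule required calls in both comparisons and every co-culture library below all libraries of both reference groups. The lack of overlap is thus part of the choice. In all, 897 genes met the rule, beside 15389 genes tested. This rule asked for at least 10 CPM in both reference groups, so its count cannot be set against that of genes above both.

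The other 6 comprised a receptor, a peptidase and zinc finger genes. The lysophosphatidic acid receptor gene Lpar6 had 6.12 ± 0.621 CPM in co-culture, 13.1 ± 1.5 CPM with feeders removed and 30.3 ± 2.11 CPM in control feeders. The peptidase gene Mme had 31.4 ± 2.31 CPM in co-culture, 66.9 ± 3.21 CPM with feeders removed and 119 ± 11.3 CPM in control feeders. The X-linked zinc finger gene Zfx had 24.5 ± 1.44 CPM in co-culture, 52.1 ± 5.07 CPM with feeders removed and 67.2 ± 2.78 CPM in control feeders. Zfp160 (co-culture 6.06 ± 1.14, feeders removed 12.9 ± 1.18, control feeders 36.9 ± 2.94 CPM), Zfp970 (co-culture 16 ± 2.52, feeders removed 33.7 ± 2.71, control feeders 50.2 ± 2.83 CPM) and Zbtb26 (co-culture 5.02 ± 0.243, feeders removed 10.5 ± 1.76, control feeders 10.6 ± 0.593 CPM) were the rest. With ATN161 the mean was below that of co-culture for Rbm4b (12.3 CPM), Lpar6 (4.05 CPM), Zfx (18.2 CPM) and Zfp160 (5.04 CPM). It was above co-culture for the other 6, among them Luc7l3 (67.2 CPM), Clk1 (65 CPM) and Hnrnph1 (337 CPM). These differences were not tested. No list of splicing genes was examined, so these 4 are examples and not a group result.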

How the data were processed

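Messenger RNA was sequenced in 18 mouse libraries of 6 groups, of which this comparison uses ES cells on control feeders and control feeders alone (3 each). RNA was isolated with Trizol and built with a TruSeq mRNA kit, per the labels' protocols. StringTie 1.3.3b, HISAT2 2.1.0, DESeq2 1.2.10 and SAMtools 1.4 appear in the submitters' processing notes with no role, beside the builds mm10 and GRCm38. The deposited table holds expected counts, estimated reads without normalisation, for 75416 transcripts. They were summed to 19630 Entrez genes and rounded. Strand use is not given in the sources used here, so reads of overlapping antisense genes cannot be told apart. Reads of near copies (the Zscan4, Usp17l, Fthl17 and Oas families, and pseudogenes of Pou5f1 and Nanog) are uncertain.

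The fit was edgeR 4.0.16 (quasi-likelihood, two-sided, TMM scaling, filterByExpr) in R 4.3.3 with all 18 libraries and 1 coefficient per group, and p-values were adjusted by Benjamini-Hochberg over 15389 genes. The common biological coefficient of variation was 0.0792. The fit was also run on simulated counts in which few genes changed, unlike the 84.2% of genes called here. That run does not show how scaling or false calls behave where most genes differ. A fold against a group without counts used a floor of 3 counts over the group, 0.0569 CPM in control feeders, which covers counting error only. Feeder-specific and ES-specific genes were at least 8-fold apart between control feeders and both groups of ES cells without feeders (0.5 CPM added), with at least 10 CPM. CPM is not corrected for gene length, so levels are compared between samples only. Promoters came from RefSeq (GRCm38.p6), matched by symbol. Replicate numbers did not pair libraries (correlations of same-numbered deviations -0.01 to 0.0017).

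The members, lists and tests were chosen with earlier results of these data known. Named genes were Trp53, Mdm2, Cdkn1a, Fn1, Itga5, Itgb1, Itgav, Pou5f1, Nanog and Sox2, and the 10 largest rises and falls. They also included the 10 furthest above and below both control feeders and feeders-removed ES cells, and the 8 highest and lowest specific genes. In each list up to 4 members of smallest p and up to 3 exceptions were named. Others were picked for their role with their values known. Alternatives covered scaling, filter, tool (DESeq2 1.42.0, limma 3.58.1), libraries fitted, the replicate block and each library left out. Some items are not reported here.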

Additional observations from a re-analysis of the deposited data

How the results depend on the processing

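Under 14 alternatives the counts of genes stayed within 1.5 times those reported. Leaving out 1 library gave 6728 to 7126 genes higher and 5616 to 6018 lower. Same-numbered libraries did not deviate together, and with the replicate number as a block 6825 genes were higher and 6133 lower, 4145 and 3203 of them by at least 2-fold. Scaling by library totals gave 7427 higher and 5491 lower and moved the median log2 fold change of all genes to 0.214, the largest shift among the alternatives, so small changes are relative to the scaling. The median share of feeder-specific genes was 22.8% for genes specific at 4-fold, 1.83% at 32-fold (25 genes), 20.4% where ES cells with ATN161 alone defined the genes, each of which changes the set of genes, and 12.4% with library totals, which changes both the set and the levels. For ES-specific genes it was 83.7% with ATN161 alone and 84.7% with library totals. Leaving out 1 library, an alternative chosen after seeing the data, gave 11.7 to 12.1% for feeder-specific and 79.5 to 80.7% for ES-specific genes. Of 263 genes named in the text, 6 lost their call under at least 1 alternative. They were Ndrg1 (adjusted p = 0.0614 to 0.235 where lost), Ifih1 (0.0907 to 0.222), Lifr (0.061 to 0.0899), Prelp (0.0851 to 0.242), Irf9 (0.0614) and C1qc (0.0742 in the DESeq2 Wald test). Tet2, Fosl1, Fgf5, Lamc1 and Kitl gained one. Causes were not tested. Genes without counts in a group are limited by depth, and their folds are lower bounds.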
